A study of Mus musculus with 24 samples.

Results

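The EGF receptor family was described on 24 arrays of mouse thyroid tissue through the receptor genes Egfr, Erbb2 and Erbb3 and the ligand genes Ereg, Areg, Hbegf, Tgfa, Btc and Egf. These 9 genes were chosen by name, with earlier results of these data known. A probe set annotated to the gene was found for 8 of them, among 12394 genes on the array. Areg, which encodes amphiregulin, had no probe set under its name in the annotation used here and was not analysed here. The 8 genes have 17 probe sets, and each gene was read through its brightest one. The arrays are Affymetrix Mouse430A_2. Normal thyroid was measured as 6 pools of glands. A pool averages over its glands, so the spread between pools can be narrower than that between single glands. Tumours were 4 of papillary type (PTC), which keeps features of the gland, 5 of anaplastic type (ATC), which has largely lost them, and 9 labelled recurrent. The study concerns resistance to the loss of BRAF, a kinase of the MAPK cascade, in mouse anaplastic tumours. The titles of the normal pools carry WT on 4 and Cre on 2, and the labels state no other genotype, no strain, age or agent, and do not say whether tumours came from separate animals, so each p-value is set against a spread between samples that may in part be technical. Values are deposited log2 intensities, and a difference of 1 is a 2-fold change in intensity.

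Receptors of this family are tyrosine kinases at the cell surface that work in pairs. Egfr binds Ereg, Areg, Hbegf, Tgfa, Btc and Egf. Erbb2 binds no ligand of its own and serves as a partner of the others, while Erbb3 binds neuregulins, has a weak kinase and passes the signal on to PI3 kinase. The ligands are made as membrane proteins and are released by proteases of the ADAM family. Bound receptors feed the RAS, RAF and ERK cascade, and several of the ligand genes are themselves switched on by ERK, which makes a loop. In the thyroid, EGF is known to drive follicular cells to divide while they lose differentiated functions.

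Some arrays stood apart in ways that bear on the results. Titles carry JK on 4 normal, 4 PTC, 2 ATC and 3 recurrent arrays, Cre on the other 2 normal pools (numbers 5 and 6), and a bare number on the other 3 ATC and 6 recurrent arrays, so PTC can be compared with normal within the JK titles alone. The 4 JK pools are the WT pools, so among the pools the JK title and WT against Cre cannot be told apart. Braf was at 11.14 on the array labelled recurrent 2, within the ATC range of 10.29 to 11.98, and at 5.62 to 7.14 on the other 8 recurrent arrays. The thyroid marker Tg was at 14.80 to 14.96 in the pools and 13.11 to 14.24 in PTC. It was at 4.46 to 5.98 in ATC apart from ATC 4 (13.48), and in recurrent tumours at 4.61 to 5.86 apart from recurrent 1 (11.31) and recurrent 4 (14.18). Normal pool 5 had the lowest mean of 3 adipocyte markers (9.55 against 12.44 to 12.81 in the other pools) and the highest mean of 9 macrophage markers (9.14 against 7.54 to 7.99). Counts below are also given without normal pool 5, ATC 4, recurrent 2 and recurrent 4 together, a choice made after the values were seen.

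The promoters of the ligand Btc, higher in every ATC array than in any pool or PTC array, of the receptor Erbb2, highest in PTC, and of the ligand Egf, which was high in 3 recurrent tumours, carry these sequences. They are taken from RefSeq on GRCm38.p6 and run from 250 bases before to 50 after the gene's start, at chr5:91402945-91403244 (minus strand), chr11:98412234-98412533 (plus strand) and chr3:129725037-129725336 (minus strand, 1 of 2 listed starts of Egf). Capitals mark a match on either strand to the AP-1 motif TGANTCA, the CRE motif TGACGTCA, the ETS motif CCGGAAGT, the TATA box motif TATAAA or the GC box motif GGGCGG.
Btc: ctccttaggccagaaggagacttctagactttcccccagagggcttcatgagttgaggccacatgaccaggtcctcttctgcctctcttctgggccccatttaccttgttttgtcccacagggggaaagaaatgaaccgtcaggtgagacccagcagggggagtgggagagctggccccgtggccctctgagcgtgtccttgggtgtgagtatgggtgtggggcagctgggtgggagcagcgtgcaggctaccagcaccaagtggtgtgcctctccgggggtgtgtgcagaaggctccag
Erbb2: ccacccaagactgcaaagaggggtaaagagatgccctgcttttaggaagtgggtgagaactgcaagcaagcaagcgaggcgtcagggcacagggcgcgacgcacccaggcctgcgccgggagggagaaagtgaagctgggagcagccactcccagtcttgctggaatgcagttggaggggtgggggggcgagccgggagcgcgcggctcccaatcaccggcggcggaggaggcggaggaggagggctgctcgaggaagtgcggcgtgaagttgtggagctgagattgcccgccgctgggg
Egf: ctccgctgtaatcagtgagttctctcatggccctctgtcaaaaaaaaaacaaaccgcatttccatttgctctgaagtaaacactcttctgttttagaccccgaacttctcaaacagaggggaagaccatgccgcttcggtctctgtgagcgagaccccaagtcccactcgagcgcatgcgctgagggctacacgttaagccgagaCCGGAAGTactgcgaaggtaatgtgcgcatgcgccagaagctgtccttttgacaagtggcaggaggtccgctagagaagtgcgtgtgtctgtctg
Among these 3 windows the ETS letters of Egf were the only match, from -45 to -38 relative to the start. The other listed start of Egf, with the window chr3:129755273-129755572, held no match. Those letters occur in 3.89% of 32851 promoters of the same length, against 7.81% for AP-1, 1.79% for CRE, 13.6% for TATA and 35.7% for the GC box. A match is a description of letters, not of a bound site. Ereg and Erbb3 have no entry in the promoter table.

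The receptor genes moved differently from one another. Egfr, the founding receptor, varied little within any group, with SDs from 0.08 to 0.25, and its mean was lower in every tumour group than in the pools. Erbb2 was raised in PTC and not called in ATC or recurrent tumours against the pools. Erbb3 was high in normal glands and PTC and fell in recurrent tumours, where it ran from 6.03 to 11.12. In bulk tissue, fewer cells of a type and less RNA per cell cannot be told apart.

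Egfr was at 8.73, 8.58, 8.40, 8.58, 8.09 and 8.41 in normal pools 1 to 6. It was at 7.94, 8.05, 7.88 and 8.004 in PTC 1 to 4 and at 8.12, 8.29, 7.99, 8.19 and 7.76 in ATC 1 to 5. Recurrent tumours ran from 7.51 through a median of 7.89 to 8.32. All 4 PTC arrays lay below all 6 pools, while ATC and recurrent arrays overlapped the lowest pool, number 5. Egfr fell by 0.49 ± 0.15 (SE) in PTC, with limma adjusted p = 0.0294, by 0.39 ± 0.14 in ATC, with limma adjusted p = 0.0332, and by 0.55 ± 0.12 in recurrent tumours, with limma adjusted p = 0.00137, each against the pools.
These falls differed between probe sets. Of the other 4 Egfr probe sets, 1424932_at differed by -1.11 in PTC and 0.42 in ATC from the pools, neither called (limma adjusted p = 0.164 and 0.531), and was higher by 1.54 in ATC than in PTC (limma adjusted p = 0.0419). Another, 1432647_at, was called in recurrent tumours against the pools, at -0.30 (limma adjusted p = 0.0298). With the mean of all Egfr probe sets the differences from the pools were -0.35 in PTC, -0.02 in ATC and -0.23 in recurrent tumours, with limma adjusted p = 0.15, 0.923 and 0.18. Within the JK titles the differences were -0.60 in PTC, -0.37 in ATC and -0.57 in recurrent tumours (limma adjusted p = 0.00173, 0.0546 and 0.00214), and outside them -0.27 in ATC and -0.38 in recurrent tumours (0.552 and 0.399). With the kind of title as a block the ATC difference was -0.40 and not called (limma adjusted p = 0.0586). The call in PTC was also lost without any single PTC array or without normal pool 1, 2 or 4 (limma adjusted p from 0.0533 to 0.0893), and the call in ATC without ATC 3 or 5 or normal pool 1, 2 or 4 (0.0642 to 0.112).

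Erbb2, the partner receptor, was at 8.99, 9.54, 9.56 and 9.47 in PTC 1 to 4 against 7.73 to 8.40, with a median of 7.94, in the 6 pools. Every PTC array was above every pool, and PTC 1 was the lowest of its group. ATC 1 to 5 were at 8.85, 8.53, 8.46, 7.40 and 8.18, and recurrent tumours ran from 6.76 through 7.78 to 8.49. No ATC or recurrent array reached the lowest PTC array. Erbb2 was higher in PTC than in the pools by 1.38 ± 0.31 (SE), a 2.60-fold difference (limma adjusted p = 0.00431). The JK-titled arrays alone gave 1.53 (limma adjusted p = 0.000344).
Against PTC, Erbb2 was lower in ATC (difference -1.11 ± 0.33, limma adjusted p = 0.0215) and lower in recurrent tumours (difference -1.71 ± 0.29, limma adjusted p = 0.000197). The first was not called within the JK titles (-0.70, limma adjusted p = 0.0997), with the kind of title as a block (-0.95, 0.0839), without ATC 4 (-0.89, 0.0656) or without PTC 2, 3 or 4 (limma adjusted p from 0.0537 to 0.0662). The second was -1.70 within the JK titles (limma adjusted p = 0.000242). Against the pools, ATC differed by 0.27 ± 0.29 and recurrent tumours by -0.34 ± 0.26 (limma adjusted p = 0.519 and 0.338). The ATC difference was 0.82 within the JK titles, which was called (limma adjusted p = 0.0332), and -0.29 outside them (0.779).

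**Figure D1:**
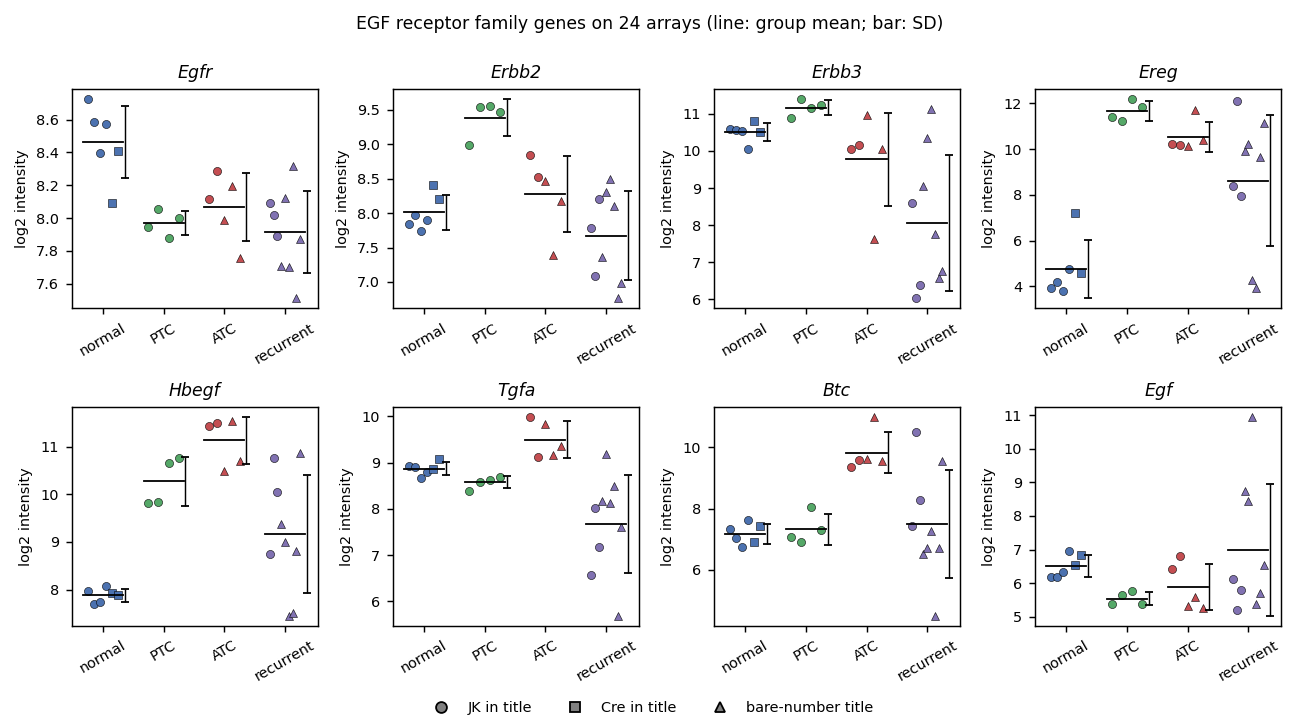
Log2 intensity (y axis of each panel) of the 8 measured genes by tissue group (x axis), 1 point per array, with the group mean as a line, the SD as a bar and the marker shape giving the kind of array title. The 4 PTC arrays are the highest in Erbb2 (8.99 to 9.56), and the 5 ATC arrays exceed all pools and PTC arrays in Btc. The recurrent group has the largest SD in all 8 genes.

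Erbb3, the neuregulin receptor that couples to PI3 kinase, was at 10.07 to 10.81 in the pools, with a median of 10.56, and at 10.89, 11.40, 11.15 and 11.25 in PTC 1 to 4. ATC 1, 2, 3 and 5 were at 10.06, 10.15, 10.97 and 10.05, and ATC 4 at 7.63. Among the recurrent tumours, numbers 5 and 6 kept levels of 10.35 and 11.12, numbers 4, 1 and 7 were at 9.05, 8.59 and 7.77, and numbers 9, 8, 3 and 2 were at 6.78, 6.57, 6.38 and 6.03. Thus 7 of 9 recurrent arrays lay below every pool and 2 lay within or above the range of the pools.
Recurrent tumours differed by -2.45 ± 0.65 (SE) from the pools (limma adjusted p = 0.0053) and by -3.10 ± 0.74 from PTC (limma adjusted p = 0.00399). The JK titles alone gave -3.45 and -4.17 (limma adjusted p = 0.000116 and 5.38e-05), and outside them the difference from the pools was -2.06 and was not called (0.412). Without the array labelled recurrent 2 they were -2.19 and -2.85 (limma adjusted p = 0.00989 and 0.00596). The second Erbb3 probe set was dim, between the 13.2 and 22.7 percentiles of all probe sets on every array, and the mean of both gave -1.39 and -1.65 (limma adjusted p = 0.00336 and 0.00398).
The difference from ATC, -1.70 ± 0.68, was not called (limma adjusted p = 0.174). It was called within the JK titles (-3.11, limma adjusted p = 0.0071), with array weights (-2.18, 0.0074) and without recurrent 6 (-2.09, 0.0385). PTC exceeded the pools by 0.65 ± 0.79, not called (limma adjusted p = 0.697), although all 4 PTC arrays lay above all 6 pools. A fit of those 10 arrays alone called it (limma adjusted p = 0.0029). The main fit uses 1 estimate of the spread for all 4 groups. The SD of Erbb3 was 0.24 in the pools, 0.21 in PTC, 1.26 in ATC and 1.83 in recurrent tumours.

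Epithelial markers moved beside Erbb3. In recurrent tumours 9 of 11 epithelial markers were lower than in the pools and 0 higher, and in ATC 0 were lower and 2 higher. Over all genes 19.3% were called lower and 14.5% higher in recurrent tumours, and 19.1% lower and 15.1% higher in ATC. The mean level of the 11 markers was 10.97 to 11.88 in the pools, 11.40 to 11.88 in PTC and 11.75 to 12.27 in ATC apart from ATC 4, at 9.94. In recurrent tumours it was 10.81 and 10.87 in numbers 5 and 6, 10.13 in number 4, and 7.17 to 8.96 in the other 6. The tumours low in Erbb3 were thus also low in the mean of these markers, though not in each marker. Krt8 was at 13.08, 13.77, 12.84 and 13.38 in recurrent 2, 3, 8 and 9, within the 12.08 to 13.92 of the pools. Epcam was at 6.48, 6.43, 8.16 and 9.09 there, below the 12.65 to 12.89 of the pools. The part of these markers in the result was not tested. Among all 12394 genes, those with the highest Pearson r to Erbb3 over the 24 arrays were Tmc4 (0.98), the kinase gene Tnk1 (0.97) and the epithelial splicing factor Esrp2 (0.96). After group means were removed the values were 0.97, 0.94 and 0.96. They are given as a description, since arrays of a group share their tissue type.

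**Figure D2:**
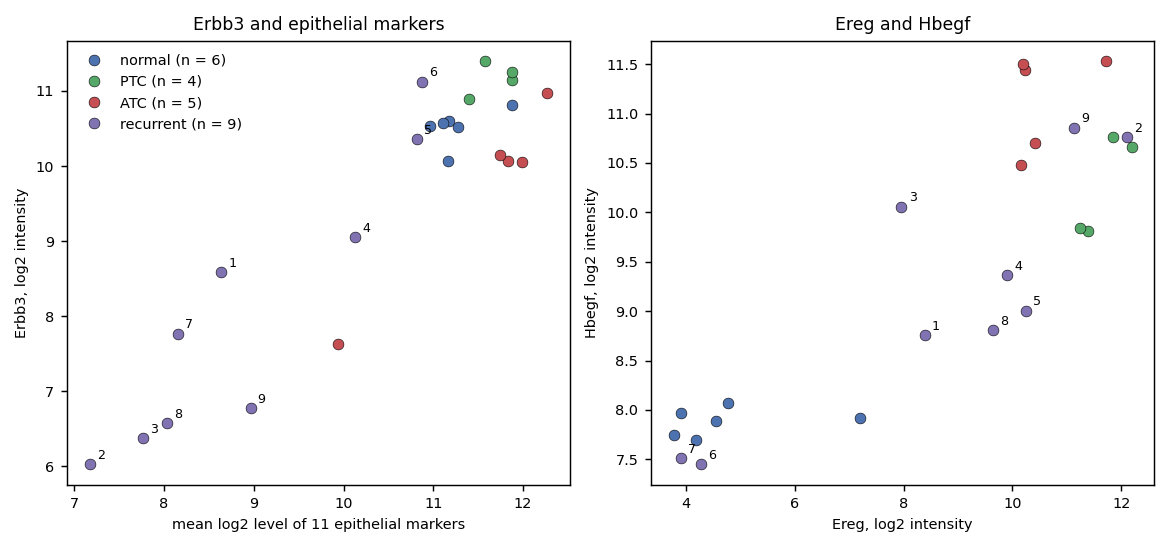
Left, Erbb3 (y axis, log2 intensity) against the mean log2 level of 11 epithelial markers (x axis), and right, Hbegf (y axis) against Ereg (x axis), both log2 intensity, with 1 point per array, coloured by group, and recurrent arrays numbered. Recurrent 5 and 6 lie with the normal pools on the left, recurrent 6 and 7 lie with them on the right, and recurrent 2 and 9 lie near PTC on the right.

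Among the ligands, Ereg and Hbegf were high in both tumour types, Btc in ATC, and Egf in only 3 recurrent tumours. Ereg, which encodes epiregulin, a broad and low-affinity ligand, showed the largest difference of the 8 genes in PTC, ATC and recurrent tumours against the pools. Hbegf, the heparin-binding ligand, had its highest group mean in ATC.

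Ereg was at 3.90, 4.18, 3.78, 4.77, 7.20 and 4.56 in normal pools 1 to 6, and pool 5 stood apart from the rest. PTC 1 to 4 were at 11.39, 11.25, 12.19 and 11.85, and ATC 1 to 5 at 10.23, 10.19, 10.15, 11.72 and 10.41. Every PTC and ATC array was above every pool. The recurrent arrays 1 to 9 were at 8.39, 12.10, 7.96, 9.91, 10.24, 4.27, 3.91, 9.64 and 11.13, so that 7 exceeded all pools and numbers 6 and 7 lay among pools 1 to 4 and 6.
Ereg rose by 6.94 ± 1.19 (SE) in PTC, 122-fold on the intensity scale (limma adjusted p = 0.000338). In ATC it rose by 5.81 ± 1.11, 56.0-fold (limma adjusted p = 0.00033), and in recurrent tumours by 3.88 ± 0.97, 14.7-fold (limma adjusted p = 0.00345). Most pools lay near background for Ereg, where differences are compressed, so these folds are approximate. The Ereg probe set went down to the 4.54 percentile of all probe sets on an array. The rises within the JK titles were 7.51, 6.05 and 5.32 (limma adjusted p = 2.1e-05, 0.00029 and 0.000177). Outside them they were 4.88 in ATC and 2.30 in recurrent tumours and were not called (0.205 and 0.56); normal pool 5 is 1 of only 2 pools there.
ATC differed from PTC by -1.13 ± 1.23 (limma adjusted p = 0.585). Recurrent tumours differed from ATC by -1.92 ± 1.02 (0.339) and from PTC by -3.05 ± 1.10, just short of a call (limma adjusted p = 0.0506). The difference from PTC was called without the array labelled recurrent 2, at -3.49 (limma adjusted p = 0.0187), without recurrent 4, 5 or 9 (0.0338 to 0.048), and with a filter on dim genes (0.0424). Genes with the highest Pearson r to Ereg over the 24 arrays were the ectonucleotidase Entpd1 (0.93), the interleukin-1 receptor antagonist Il1rn (0.91) and the matricellular Ccn3 (0.89), with 0.90, 0.76 and 0.74 after group means were removed.

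Ereg, Areg and Btc lie side by side on chromosome 5, with Epgn, a further ligand gene, next to Ereg on the other side, in the gene order of the RefSeq annotation. Btc was not called in PTC or recurrent tumours against the pools, where Ereg was. Areg has no values here. Epgn differed from the pools by -0.01 in PTC, 0.12 in ATC and 0.77 in recurrent tumours, none called (limma adjusted p = 0.994, 0.833 and 0.0696), from a mean of 4.96 in the pools. Beyond Btc, Parm1 was lower in ATC (difference -2.29, limma adjusted p = 0.00579) and in recurrent tumours (difference -2.67, 0.000499). The chemokine gene Cxcl1, on the Epgn side, was higher by 3.13 in PTC, 2.37 in ATC and 2.12 in recurrent tumours (limma adjusted p = 0.0229, 0.0352 and 0.0306). Cdkl2, past Parm1, differed by -1.18, -0.96 and -1.24 (limma adjusted p = 0.0473, 0.049 and 0.0049). The other measured neighbours, Cxcl2 and Rchy1, were not called in these comparisons.

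Hbegf was at 7.97, 7.70, 7.74, 8.07, 7.92 and 7.88 in the pools, where its SD of 0.14 was the smallest of the 4 groups. PTC 1 to 4 were at 9.81, 9.84, 10.66 and 10.76, and ATC 1 to 5 at 11.44, 11.50, 10.48, 11.53 and 10.70. All tumours of both types exceeded all pools, and the 2 types overlapped. The recurrent arrays 1 to 9 were at 8.76, 10.76, 10.06, 9.37, 9.004, 7.45, 7.51, 8.81 and 10.86. Numbers 6 and 7, which lacked high Ereg, were again the lowest and lay below all pools.
Hbegf rose by 2.39 ± 0.52 (SE) in PTC (limma adjusted p = 0.00287) and by 3.25 ± 0.48, 9.52-fold, in ATC (limma adjusted p = 2.4e-05). These were 2.40 and 3.60 within the JK titles (limma adjusted p = 0.000551 and 0.000115), and outside them the ATC rise was 3.004 and not called (0.0711). The second Hbegf probe set gave 2.04 in PTC and 3.04 in ATC (limma adjusted p = 0.00595 and 2.35e-05).
Recurrent tumours exceeded the pools by 1.29 ± 0.42 (limma adjusted p = 0.0208). This was not called in a fit of the 2 groups alone (limma adjusted p = 0.0592), outside the JK titles (0.93, 0.548) or without the 4 arrays that stood apart (1.05, 0.0888). Against ATC they differed by -1.96 ± 0.45 (limma adjusted p = 0.0123), which was not called in a fit of the 2 groups alone (0.141), nor within the JK titles (-1.61, 0.0603) or outside them (-2.07, 0.304). The genes most like Hbegf over the 24 arrays were the ephrin receptor Epha2 (r = 0.94), keratin Krt20 (0.92) and Ccn3 (0.91).

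Tgfa, transforming growth factor alpha, was at 8.92, 8.90, 8.67, 8.81, 8.87 and 9.07 in the pools and 8.40, 8.59, 8.63 and 8.70 in PTC. ATC 1 to 5 were at 9.998, 9.13, 9.83, 9.17 and 9.36, above every pool. Recurrent tumours ran from 5.69 (number 8) through 8.02 to 9.20 (number 5), and 8 of 9 lay below every pool. Tgfa differed by -0.29 ± 0.43 in PTC and 0.62 ± 0.40 in ATC from the pools, neither called (limma adjusted p = 0.765 and 0.252). Fits of the 2 groups alone called both (limma adjusted p = 0.0226 and 0.00689).
In recurrent tumours Tgfa fell by 1.20 ± 0.35 (SE) against the pools (limma adjusted p = 0.0107) and by 1.82 ± 0.37 against ATC (limma adjusted p = 0.00506). Within the JK titles the differences were -1.57 and -2.31 (0.00105 and 0.00291). Outside them they were -1.09 and -1.57 and not called (0.442 and 0.391), and the second was not called in a fit of the 2 groups alone (0.0991). The other 2 Tgfa probe sets gave -0.30 and -0.11 against the pools and -0.09 and -0.16 against ATC (limma adjusted p from 0.166 to 0.852), and none was called. Those 2 lay between the 25.7 and 44.3 percentiles of all probe sets on every array, and the one used between the 28.7 and 84.4 percentiles. The mean of all 3 probe sets, the brightest included, gave -0.54 and -0.69 (limma adjusted p = 0.00764 and 0.0126).

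Btc, betacellulin, which can engage Egfr and Erbb4, was at 6.76 to 7.62 in the pools, with a median of 7.18, and at 7.06, 6.90, 8.04 and 7.31 in PTC. ATC 1 to 5 were at 9.37, 9.58, 9.61, 11.01 and 9.56, with ATC 4 apart at the top. No pool or PTC array reached the ATC range. The recurrent arrays 1 to 9 were at 7.43, 10.50, 8.27, 6.52, 6.71, 7.29, 4.503, 6.71 and 9.54, so the array labelled recurrent 2 and number 9 lay in the ATC range and number 7 below all other arrays.
Btc was higher in ATC than in the pools by 2.64 ± 0.68 (SE), 6.25-fold (limma adjusted p = 0.00426), and than in PTC by 2.50 ± 0.75 (limma adjusted p = 0.0245). The second probe set gave 3.02 and 2.95 (limma adjusted p = 0.00247 and 0.0123). Within the JK titles the differences were 2.29 and 2.15 (0.0171 and 0.0412), and outside them the first was 2.89 (0.151). The difference from PTC was not called without ATC 4 (2.20, limma adjusted p = 0.0649) or without PTC 1, 2 or 4 (0.0542 to 0.0758).
Recurrent tumours differed from ATC by -2.33 ± 0.63 (limma adjusted p = 0.0351). This was -0.74 within the JK titles (0.549), where the array labelled recurrent 2 is 1 of 3, and -3.18 outside them (0.205). It was -2.70 without that array (limma adjusted p = 0.00242). The call was lost in a fit of the 2 groups alone (limma adjusted p = 0.238), without any single ATC array (0.0585 to 0.0868) or without recurrent 4 or 8 (0.0557 and 0.0526). From the pools the recurrent group differed by 0.32 ± 0.59, and by -0.06 without the array labelled recurrent 2 (limma adjusted p = 0.722 and 0.94). It was 1.55 within the JK titles (limma adjusted p = 0.0453) and -0.29 outside them (0.897).

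Egf itself was dim in most samples. It was at 6.18, 6.19, 6.32, 6.94, 6.53 and 6.85 in the pools and 5.38, 5.64, 5.78 and 5.37 in PTC, below every pool. ATC 1 and 2 were at 6.42 and 6.80 and ATC 3 to 5 at 5.33, 5.59 and 5.25. Recurrent 4, 5 and 6 reached 8.75, 8.44 and 10.96, while the other 6 lay between 5.20 and 6.54. No comparison of groups was called over all arrays: the difference from the pools was -0.96 ± 0.79 (SE) in PTC, -0.62 ± 0.74 in ATC and 0.49 ± 0.64 in recurrent tumours (limma adjusted p = 0.508, 0.562 and 0.601).
The PTC difference was called within the JK titles (-0.87, limma adjusted p = 0.0144), with array weights (0.00832) and in a fit of the 2 groups alone (0.000823). The 3 tumours high in Egf all carry bare-number titles, and within the JK titles the recurrent difference was -0.71 (limma adjusted p = 0.0361). They are also the 3 highest recurrent tumours in Erbb3 and in the epithelial marker mean.
Salivary gland, which makes EGF, and parathyroid, which lies beside the thyroid, were read through their markers. The mean of 7 salivary gland markers was 6.06, 6.81 and 5.52 in recurrent 4, 5 and 6, against 5.21 to 7.88 in the other recurrent tumours and 5.90 to 6.39 in the pools. Klk1, a salivary kallikrein, was at 4.19, 4.996 and 4.16 in those 3. Parathyroid hormone, Pth, was at 14.76 and 14.58 in recurrent 4 and 5, as in the pools (14.42 to 14.78), and at 4.501 in recurrent 6. Their part in the Egf levels was not tested. The genes most like Egf over the 24 arrays were Tmigd1 (r = 0.92), Muc15 (0.91) and Rassf9 (0.91), which were at 11.18, 9.35 and 6.96 in recurrent 6.

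**Figure D3:**
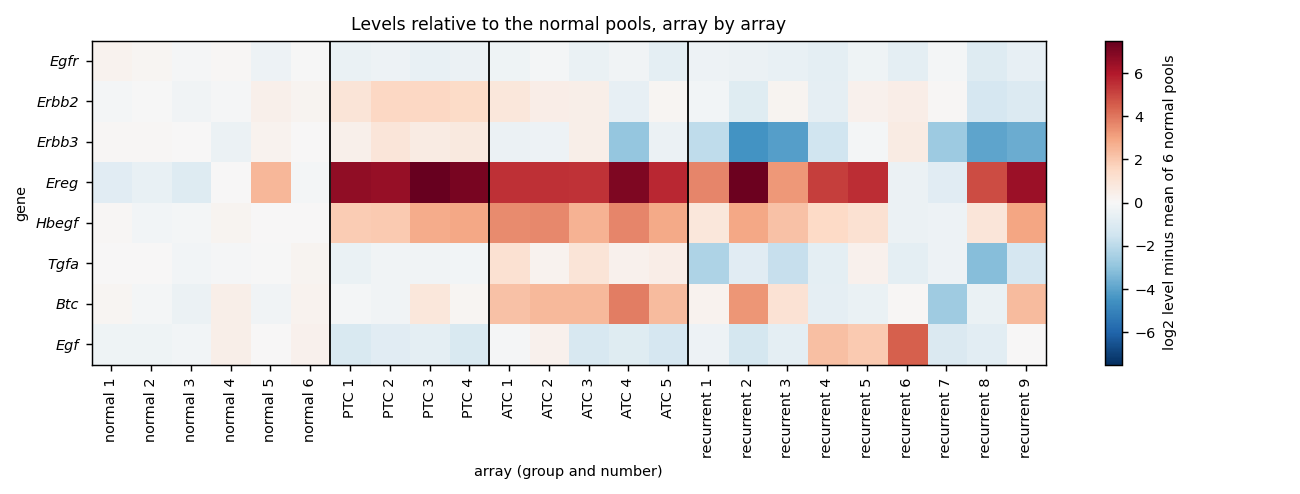
Log2 level minus the mean of the 6 normal pools, as colour, for the 8 genes (rows) on each of the 24 arrays (columns, by group and number). Ereg and Hbegf are red in every PTC and ATC array, Btc most in the ATC arrays and in recurrent 2 and 9, and Egf most in recurrent 4, 5 and 6, while Erbb3 is blue in ATC 4 and in most recurrent arrays.

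Counted over the family, 4 of 8 genes were called in PTC against the pools, 3 higher (Erbb2, Ereg and Hbegf) and 1 lower (Egfr), where 14.2% of all genes were called (6.16% higher and 8.03% lower). In ATC 4 of 8 were called, 3 higher (Ereg, Hbegf and Btc) and 1 lower (Egfr), against 34.3% of all genes (15.1% higher and 19.1% lower). In recurrent tumours 5 of 8 were called, Ereg and Hbegf higher and Egfr, Erbb3 and Tgfa lower, against 33.8% of all genes (14.5% higher and 19.3% lower). These 3 comparisons share the same 6 pools, and the family was chosen with earlier results of these data known. ATC and PTC differed in 2 of 8, Btc higher and Erbb2 lower in ATC (17.2% of all genes called, 7.81% higher and 9.35% lower). Recurrent tumours differed from PTC in 2 of 8, Erbb2 and Erbb3, both lower (21.8% of all genes called, 9.71% higher and 12.1% lower), and from ATC in 3 of 8, Hbegf, Tgfa and Btc, all lower (4.32% of all genes called, 1.19% higher and 3.12% lower).
Without the 4 arrays that stood apart the counts were 4, 4, 4, 1, 3 and 3 in that order, and over all genes 2080, 4140, 3909, 2074, 2608 and 786. Without the array labelled recurrent 2 the counts of the 3 recurrent comparisons were 5, 4 and 3, the 4 against PTC including Ereg and Hbegf (limma adjusted p = 0.0187 and 0.0417). Over all genes these 3 counts were 4137, 2806 and 844. The arrays without JK in their titles, with 2 pools, gave 0 calls of family genes by limma in the 3 comparisons they allow. Over all genes they called 759 in ATC against the pools, 503 in recurrent tumours against the pools and 41 in recurrent tumours against ATC. At an unadjusted p under 0.05 the family genes gave 2, 0 and 3 in that order.

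Likeness over the 24 arrays, by Pearson r, was lower for Egfr, where it peaked at 0.82 with Hid1, than for the other genes. The closest genes were Klc3 (0.90) and the syndecan Sdc4 (0.90) to Erbb2, the junction protein gene F11r (0.87) to Tgfa, and Pold4 (0.90) and the PD-1 ligand Pdcd1lg2 (0.90) to Btc. These values are a description and have no p.

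**Figure D4:**
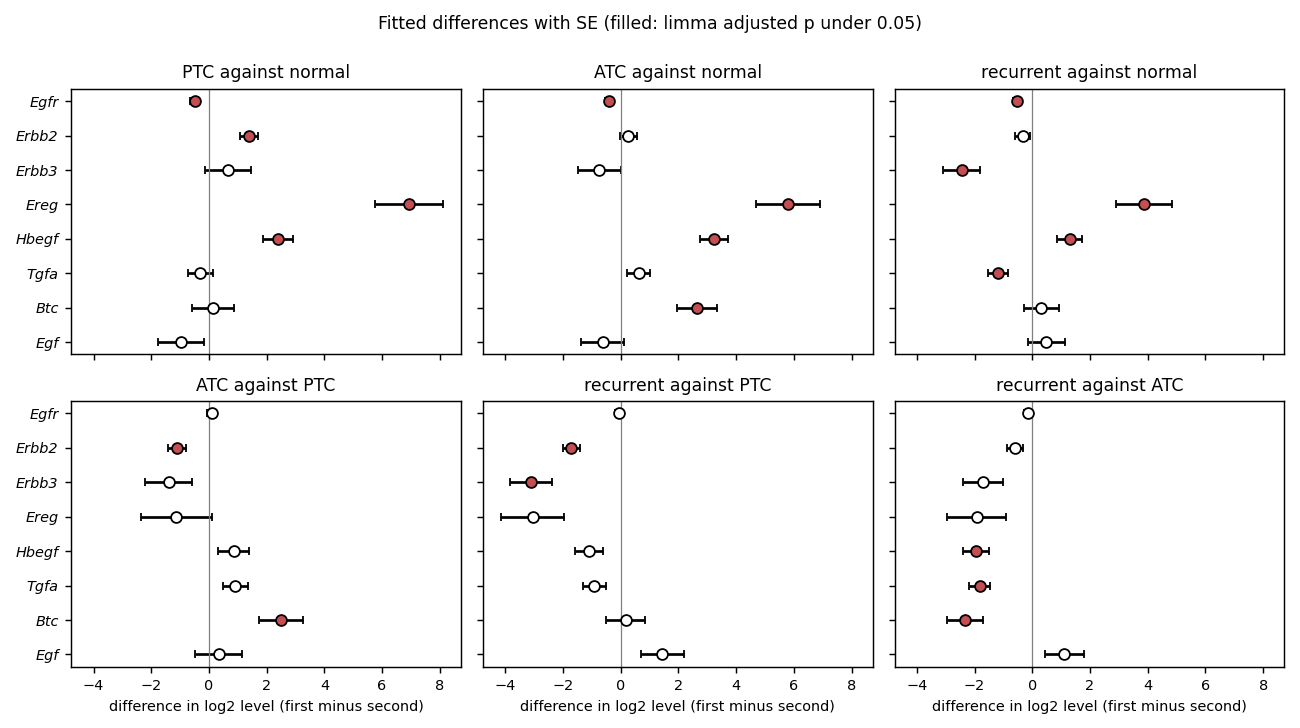
Fitted difference in log2 level (x axis, first group minus second, with SE as bars) of the 8 genes (y axis) in each of 6 comparisons, filled where the limma adjusted p was under 0.05. Ereg lies farthest from 0 in the 3 comparisons with the pools, at 6.94, 5.81 and 3.88, and the 3 calls in recurrent tumours against ATC all lie below 0.

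The 9 recurrent tumours differed in which of these genes they held. Recurrent 6 combined the highest Erbb3 and Egf of the group with Ereg and Hbegf near the pools. Recurrent 7 was near or below the pools in all 5 ligands. The array labelled recurrent 2 and recurrent 9 had high Ereg, Hbegf and Btc with Erbb3 at 6.03 and 6.78. Recurrent 4 and 5 had Ereg at 9.91 and 10.24 together with raised Egf, and squamous markers at 10.52 and 10.18 (mean of 7 genes) against 5.91 to 8.40 in the other recurrent tumours.
Over the 9 recurrent arrays all 28 pairs of the 8 genes were correlated. By exact permutation, two-sided, 0 pairs passed after Benjamini-Hochberg adjustment over the 28, while 4 had an unadjusted p under 0.05 by Pearson's r and 2 by Spearman's rho. The strongest were Erbb3 with Egf (Pearson r = 0.88, exact p = 0.00184, adjusted p = 0.0515; Spearman rho = 0.83, exact p = 0.00827, adjusted p = 0.232) and Ereg with Hbegf (r = 0.86, exact p = 0.00446, adjusted p = 0.0625; rho = 0.78, exact p = 0.0172, adjusted p = 0.241).
Without the 2 arrays farthest from the median of the first gene r was 0.69 and 0.57 (exact p = 0.056 and 0.185, n = 7). Dropping the extremes of a gene tends by itself to lower r, so no conclusion is drawn from that fall. On the 6 bare-number arrays r was 0.90 and 0.89 (exact p = 0.025 and 0.00833, adjusted p = 0.233 for both). With the mean of each gene's probe sets both passed (r = 0.90 and 0.88, exact permutation adjusted p = 0.047 for both). The 3 JK-titled recurrent arrays are too few for a value.

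The genes around the receptors were taken from 4 lists of 74 genes, 66 of them measured. Of the 12 measured genes for ligand shedding, 8 rose and 1 fell in ATC against the pools, with a median difference of 0.70 where the median of all genes was -0.08 and 15.1% of all genes were called higher and 19.1% lower. The metalloproteases Adam12 (3.29), Adam8 (3.19) and Adam19 (2.71) rose most there, followed by the surface receptor Cd44, which can present Hbegf (1.52); limma adjusted p-values of the 4 ran up to 0.0182. Timp3, a metalloprotease inhibitor, differed by -1.43 there (limma adjusted p = 0.0331). In recurrent tumours 6 rose and 1 fell (14.5% and 19.3% over all genes), among them Adam8 (2.73), Adam12 (2.30) and Adam19 (1.38), and Timp3 differed by -1.89 (limma adjusted p up to 0.0145). In PTC 2 rose, Cd44 (1.71) and Rhbdf1, an iRhom that controls ADAM17 (1.08), and 0 fell (limma adjusted p = 0.0284 and 2.7e-05), where 6.16% of all genes were called higher and 8.03% lower. Adam12, Adam8 and Adam19 differed there by 1.36, 1.63 and 1.40 and were not called (limma adjusted p = 0.121, 0.131 and 0.075).
Adam8 ranged from 5.59 to 8.71 in the pools, 8.20 to 10.18 in ATC and 5.87 to 10.57 in recurrent tumours. Macrophage markers moved beside this list: 8 of 9 rose in ATC and 0 fell, and their mean level was 7.54 to 9.14 in the pools, 8.66 to 9.60 in PTC, 9.84 to 10.68 in ATC and 7.09 to 10.89 in recurrent tumours. Fibroblast markers rose in 6 of 9 cases in ATC, with mean levels of 10.24 to 10.67 in the pools and 11.88 to 12.85 in ATC. In recurrent tumours against the pools 6 of 9 fibroblast and 4 of 9 macrophage markers rose and 0 fell. The fibroblast mean levels there were 10.22 to 12.98. Over all genes 15.1% were called higher in ATC and 14.5% in recurrent tumours. The part of these markers in the result was not tested.

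Of 25 measured genes for receptor turnover and inhibition, 3 rose and 2 fell in PTC, 5 rose and 3 fell in ATC, and 2 rose and 6 fell in recurrent tumours, each against the pools. The median differences were 0.13, 0.14 and -0.06, beside -0.01, -0.08 and -0.03 over all genes. Called in either direction over all genes were 14.2%, 34.3% and 33.8%, so the 8 of 25 in ATC and the 8 of 25 in recurrent tumours were no larger a share than that. Socs3, a suppressor of cytokine signalling, rose by 3.21, 3.27 and 2.82 in the 3 tumour groups, and the endocytic adaptor Sh3kbp1 by 2.54 in ATC and 1.86 in recurrent tumours (limma adjusted p up to 0.000119); in PTC Sh3kbp1 differed by 0.30 and was not called (0.686). Lrig1, a membrane protein that lowers Egfr and Erbb2 at the cell surface, differed by -1.70 in PTC and -1.49 in ATC (limma adjusted p = 0.000793 and 0.000504), from 10.02 to 10.37 in the pools to 8.23 to 8.63 in PTC and 8.35 to 9.30 in ATC. In recurrent tumours it differed by -0.70 from the pools (limma adjusted p = 0.0406) and was higher than in PTC by 1.00 (limma adjusted p = 0.0177). Sh3gl2, an endophilin of receptor uptake, differed by -1.43, -2.69 and -2.31 (limma adjusted p up to 0.00539).
Spry2, an ERK-induced inhibitor of receptor signalling, was the 1 gene of this list called in recurrent tumours against ATC, at -1.23 (limma adjusted p = 0.0193). That 1 of 25 stood beside 4.32% of all genes called there, 1.19% higher and 3.12% lower. Against the pools Spry2 was higher in ATC by 1.22 (limma adjusted p = 0.00575).

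The adaptor and signalling list had 25 measured genes, of which 3 rose and 2 fell in PTC, 4 rose and 3 fell in ATC and 3 rose and 2 fell in recurrent tumours against the pools. The 7 of 25 in ATC and 5 of 25 in recurrent tumours were smaller shares than the 34.3% and 33.8% called over all genes, and the 5 of 25 in PTC stood beside 14.2%. Grb14, an adaptor that binds the insulin receptor and related kinases, was at 11.50 to 11.86 in the pools, 8.31 to 8.51 in PTC, 5.66 to 7.70 in ATC and 6.005 to 10.77 in recurrent tumours. No tumour array reached the pools. The differences were -3.25, -5.16 and -3.51 (limma adjusted p up to 0.00282). The kinase Src rose by 1.13 in PTC and 1.502 in ATC and was lower in recurrent tumours than in ATC (difference -1.10, limma adjusted p = 0.00606). Shc1, which links receptors to RAS, rose by 1.28 in PTC, 0.99 in ATC and 0.79 in recurrent tumours (limma adjusted p up to 0.000934), and the receptor substrate Eps8 by 1.38 in ATC and 1.40 in recurrent tumours (0.00274 and 0.000782), with -0.38 in PTC, not called (0.586). In recurrent tumours against PTC 3 of the 25 were higher and 4 lower, where 21.8% of all genes were called (9.71% higher and 12.1% lower). Among them the Erbb2-binding adaptor Grb7 differed by -2.05 (limma adjusted p = 0.0099) and Eps8 by 1.77 (limma adjusted p = 0.000521).
Of the remaining family genes, 4 of 6 were measured. Nrg4, a neuregulin that binds Erbb4, was at 5.44 to 7.99 in the pools, 4.87 to 5.31 in PTC, 4.70 to 5.18 in ATC and 4.60 to 7.96 in recurrent tumours, and differed by -2.33, -2.43 and -2.12 (limma adjusted p up to 0.00344). Adipocyte markers, of which 3 of 5 listed were measured, moved beside it. Of these, 2 of 3 fell in PTC, 3 of 3 in ATC and 3 of 3 in recurrent tumours. Over all genes 8.03%, 19.1% and 19.3% were called lower in that order. The mean levels of the adipocyte markers were 9.55 to 12.81 in the pools, 8.25 to 9.36 in PTC, 6.11 to 8.55 in ATC and 6.43 to 11.13 in recurrent tumours. Their part in the result was not tested. The other 3 were not called in any of the 6 comparisons by limma.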

How the data were processed

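The authors deposited log2 intensities for 22690 probe sets on each of 24 arrays, obtained with RMA in Partek, per the submitters' processing notes, whose versions are not given in the sources available. RMA subtracts background and equalizes the distribution between arrays, which compresses differences near background. Array medians ran from 7.38 to 7.58, no arrays held identical values among 276 pairs, and the number of arrays limits precision.

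Groups came from the sample labels. Of the probe sets, 20393 had 1 symbol, 691 several and 1606 none in the platform annotation, and 20364 symbols were matched to RefSeq GRCm38.p6 by gene ID. Each of 12394 genes was represented by its brightest probe set, by mean over all arrays. A model of 4 group means over all 24 arrays was fitted with limma 3.58.1 (lmFit, contrasts, eBayes) in R 4.3.3. For each gene the 4 groups shared 1 estimate of the spread, so the spread within every group enters the SE of every comparison. P-values were adjusted by Benjamini-Hochberg over all genes, and a gene was called under 0.05. Pairs of genes were tested by exact permutation in SciPy 1.17.1. The procedure was tested on simulated data. There the share of false calls exceeded 0.05 when recurrent tumours were compared with the pools, PTC or ATC, most of all with ATC.

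The genes and lists were chosen with earlier results of these data known. All measured family genes are named, up to 4 called genes per pathway list and comparison with the largest differences, the 3 genes most like each family gene, and up to 3 genes per marker list. Marker lists were made for thyroid follicular, epithelial, squamous, macrophage, fibroblast, endothelial, salivary gland, parathyroid, C cell, mast cell, skeletal muscle and adipocyte genes. Alternatives were fits of 2 groups, blocks and subsets by title, array weights, a trended and robust spread, a filter on dim genes, other normalization, other probe sets and leaving out arrays. The JK titles and bare numbers are kinds of title whose meaning the labels do not give.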

Additional observations from a re-analysis of the deposited data

Results flagged for a closer look

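In 5 of 32 groups of 4 to 9 arrays, the highest or lowest value of a family gene lay farther from the rest than Dixon's 95% limit; chance sets apart about 1 in 20 groups. Ereg in normal pool 5 was at 7.20, above the other pools. ATC 4 stood apart in 3 genes, with Erbb3 at 7.63, below the other ATC arrays, and Ereg at 11.72 and Btc at 11.01, above them. Erbb2 in PTC 1 was at 8.99, below the other PTC arrays.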

How the results depend on the processing

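No paired analysis was possible because replicate numbers were given in record order and link no samples. Leaving out 1 array at a time, the counts of family genes called ranged from 3 to 4 in PTC against normal, 3 to 4 in ATC against normal, 5 to 5 in recurrent against normal, 0 to 2 in ATC against PTC, 2 to 4 in recurrent against PTC and 2 to 4 in recurrent against ATC. Over all genes the counts ranged from 1182 to 1768, 3586 to 4102 and 3578 to 4849 in the 3 comparisons with normal, in that order. They ranged from 1345 to 2115 in ATC against PTC, 1757 to 3393 in recurrent against PTC and 286 to 844 in recurrent against ATC. Fits of the 2 groups alone called 7 in PTC against normal, 5 in ATC against PTC and 0 in recurrent against ATC (3 at an unadjusted p under 0.05). Over all genes those fits called 5676, 4587 and 99, against 1758, 2127 and 535 in the main fit. The arrays without JK in the title called 0 in ATC against normal, in recurrent against normal and in recurrent against ATC. Over all genes they called 759, 503 and 41 in that order. With the kind of title as a block ATC against PTC had 1 call, and 1 without the 4 arrays that stood apart (1941 and 2074 over all genes). Array weights called 4 in ATC against PTC, 6 in recurrent against PTC and 5 in recurrent against ATC, and the JK titles alone 4 in recurrent against PTC. The counts over all genes were 6318, 5574 and 1360 with array weights and 3877 within the JK titles. The mean of each gene's probe sets let 2 of 28 pairs pass. The cause of these shifts was not tested, and the subsets also hold fewer arrays.

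Directions reversed as follows. In PTC against normal, Erbb3 was -0.12 with probe set 1452482_at; Tgfa was 0.0135 with probe-set means, 0.14 with 1421942_s_at and 0.20 with 1450421_at; Btc was -0.0767 when blocked on the title series, and -0.0910 (without PTC 3) to 0.29 with 1 array left out. In ATC against normal, Egfr was 0.42 with 1424932_at and 0.11 with 1451530_at, Erbb2 was -0.29 outside the JK titles, Tgfa -0.22 with 1421942_s_at and Egf 0.20 within the JK titles. In recurrent against normal, Egfr was 0.0869 with 1451530_at, and Btc was -0.29 outside the JK titles, -0.0263 without the 4 arrays and from -0.0602 (without recurrent 2) to 0.69 with 1 array left out. There Egf was -0.71 within the JK titles and from -0.0115 (without recurrent 6) to 0.71 with 1 array left out. In ATC against PTC, Egfr was -0.10 with 1432647_at and -0.10 with 1454313_at, Tgfa -0.36 with 1421942_s_at and -0.14 with 1450421_at, and Egf -0.0261 when blocked on the title series and -0.11 when blocked on the kind of title. In recurrent against PTC, Egfr was 0.0840 and 0.0528 with those blocks, 0.0286 within the JK titles, 0.12 with probe-set means, 0.87 with 1424932_at and 0.19 with 1451530_at. There Btc was -0.12 without the 4 arrays, and with 1 array left out from -0.21 (without recurrent 2) to 0.54, with -0.0868 without recurrent 9. In recurrent against ATC, Egfr was 0.0162 with 1454313_at and Egf -0.91 within the JK titles. The cause was not tested.

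Of called differences, 218 of the leave-one-out values stayed called in the same direction and 27 lost the call; under other settings 205 stayed and 27 lost it. Other probe sets of a gene gave 25 readings of called differences, with several readings for the same difference where a gene had several other probe sets. Of these readings 8 stayed, 14 lost the call and 3 reversed, all 3 in Egfr. With the kind of title as a block ATC against normal had 3 calls among the family genes and 4013 over all genes. Probe sets near background limit Ereg in the pools, where the fold is compressed.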
